A study of Mus musculus with 18 samples.

Results

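The comparison described here is that of BV-2 cells treated with cannabidiol (CBD) with untreated control cells (Ctrl), both without lipopolysaccharide (LPS), in small RNA sequencing data. BV-2 is an immortalized mouse microglial cell line, and resting cells are those that received no LPS. The libraries were chosen by their treatment label, and 6 of the 18 libraries of the series belong here, the control libraries numbered 22, 28 and 34 and the CBD libraries numbered 24, 30 and 36. By the study's methods CBD was present at 10 μM for 6 h in all. Other libraries used below are those of cells given 10 μM THC (Δ9-tetrahydrocannabinol) for the same time, 100 ng/ml LPS for 4 h, and CBD before LPS (CBD_LPS), with 3 libraries in each group. All cells come from 1 cell line, and the labels do not say whether the libraries of a group stem from separate cultures, so the p-values measure the spread between these libraries, which may be technical.

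MicroRNAs (miRNAs) are small RNAs of immune and other cells that bind messenger RNAs, largely through the seed, bases 2 to 8 of the mature strand, and lower their translation or stability. A longer primary transcript is cut in the nucleus to a stem-loop, the hairpin precursor, which Dicer cuts in the cytoplasm into a 5p and a 3p arm, and 1 of the arms usually persists as the mature miRNA. In microglia miR-155 and miR-146a follow Toll-like receptor signaling, and members of the miR-34/449 family are known as p53 targets in many cells. In these data a hairpin entry (written mir) and a mature entry (written miR) are separate features. Whether the reads of a hairpin entry come from intact precursors was not tested. Over the series 855 hairpin and 1279 mature entries were listed. In bulk RNA of this kind, fewer cells of a type and less RNA per cell cannot be told apart.

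The sequences that the results turn on are those of the miR-34/449 family, of the precursors of miR-34a and miR-181b, of the other mature miRNAs that differed, and of mir-3096 beside the small nucleolar RNA that it resembles. They were taken from RefSeq or GENCODE on GRCm38 and are written 5′ to 3′. In the mature sequences the seed is in capitals. The 3 members of the miR-34/449 family below lie at chr13:113037549-113037570 (+, in an intron of Cdc20b), chr13:113036008-113036028 (+) and chr4:150068473-150068494 (+), and all hold the seed GGCAGUG.
miR-449a-5p: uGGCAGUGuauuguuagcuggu
miR-449c-5p: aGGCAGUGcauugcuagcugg
miR-34a-5p: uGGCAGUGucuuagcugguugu

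Both hairpins below have precursor entries that were higher in CBD while their mature arms, in capitals here, did not pass the test. Mir34a lies at chr4:150068454-150068555 (+) and Mir181b-1 at chr1:137966639-137966718 (+), in an exon of the noncoding RNA A430106G13Rik.
Mir34a: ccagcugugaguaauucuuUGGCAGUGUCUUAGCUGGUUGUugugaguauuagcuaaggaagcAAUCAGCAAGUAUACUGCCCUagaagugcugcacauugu
Mir181b-1: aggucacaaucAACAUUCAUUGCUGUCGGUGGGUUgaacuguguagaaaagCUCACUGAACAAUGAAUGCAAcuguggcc

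The other mature miRNAs that passed the criterion, each with a seed that no other tested miRNA with a RefSeq sequence shared, are printed next, except miR-3079-5p, for which no sequence was used. miR-3968 lies at chr11:115447969-115447989 (-), opposite an exon of Trim80. miR-451b lies at chr11:78073219-78073239 (-), and miR-3097-5p at chr5:35021050-35021072 (+) in an intron of Rgs12. miR-2137 lies at chrX:72992113-72992133 (+) in an intron of Zfp185, and miR-129-5p comes from chr2:94241419-94241439 (-) and chr6:29022624-29022644 (+).
miR-3968: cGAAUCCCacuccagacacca
miR-451b: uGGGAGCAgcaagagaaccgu
miR-129-5p: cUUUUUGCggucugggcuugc
miR-3097-5p: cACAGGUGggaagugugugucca
miR-2137: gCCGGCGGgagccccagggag

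miR-3962, at chr1:194822035-194822054 (+), is shown beside let-7g-5p, at chr9:106178846-106178867 (+), with the 17 bases that both hold in capitals. They are bases 1 to 17 of miR-3962.
miR-3962: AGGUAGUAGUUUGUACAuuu
let-7g-5p: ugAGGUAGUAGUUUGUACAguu

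Mir3096, at chr5:23710991-23711061 (-), is annotated by GENCODE as a small nucleolar RNA. Its 71 bases match those of Snord93, at chr5:23852210-23852280 (+), at 70 positions, and the only position that differs is in capitals. Reads of mir-3096a, mir-3096b and Snord93 may therefore not be told apart.
Mir3096: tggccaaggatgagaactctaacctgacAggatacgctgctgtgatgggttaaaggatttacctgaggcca
Snord93: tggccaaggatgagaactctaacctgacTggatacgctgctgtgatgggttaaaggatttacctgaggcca

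CBD-treated cells differed from control cells in 14 hairpin entries and 8 mature miRNAs. Of the 22, 12 had at most 20 reads over the 6 libraries, miR-3968 was the mature miRNA among them with the most reads, and the 10 most abundant features did not pass the test. Among 1363 features with at least 10 reads over the 18 libraries, 22 met the criterion used here, an unadjusted p up to 0.005 together with a change of 1.5-fold or more. They are 1.61% of the features tested, of which 16 were higher (1.17%) and 6 lower (0.44%) in CBD, while 125 (9.17%) had a p up to 0.05. With RLE size factors the split was 13 higher and 10 lower, and with DESeq2 it was 7 and 7. Hairpin entries made up 14 of the 22, 10 of them higher and 4 lower. Mature miRNAs made up 8, 6 of them higher and 2 lower. All features tested comprised 642 hairpin entries and 721 mature miRNAs. With adjusted p-values from limma held to 0.1, 7 features differed (0.514%), 6 of them higher and 1 lower. The 3 CBD libraries lay on 1 side of the 3 control libraries for 21 of the 22. This held for 139 of all features (10.2%). The 22 were chosen on these same libraries, so nothing is read from the count of 21. Of the 22, 10 had at least 100 reads over the 6 libraries and 12 had at most 20. Among all features tested, 426 had at least 100 reads and 646 (47.4%) had at most 20.

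Values are CPM, read counts scaled to a common library size with TMM factors, and differences are on the log2(CPM + 1) scale, which understates the change of rare features. The 6 libraries held from 442718 to 760136 reads, and 3 reads corresponded to between 3.50 and 6.38 CPM in them. Over all 1363 features the median difference was 0.00, and over the 426 features with at least 100 reads the middle part of the differences (between the quartiles) ran from -0.15 to 0.24. In the plot of difference against level, the spread of all features narrows with level, so that a difference of 1 stands apart at the right and not at the left.

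**Figure D1:**
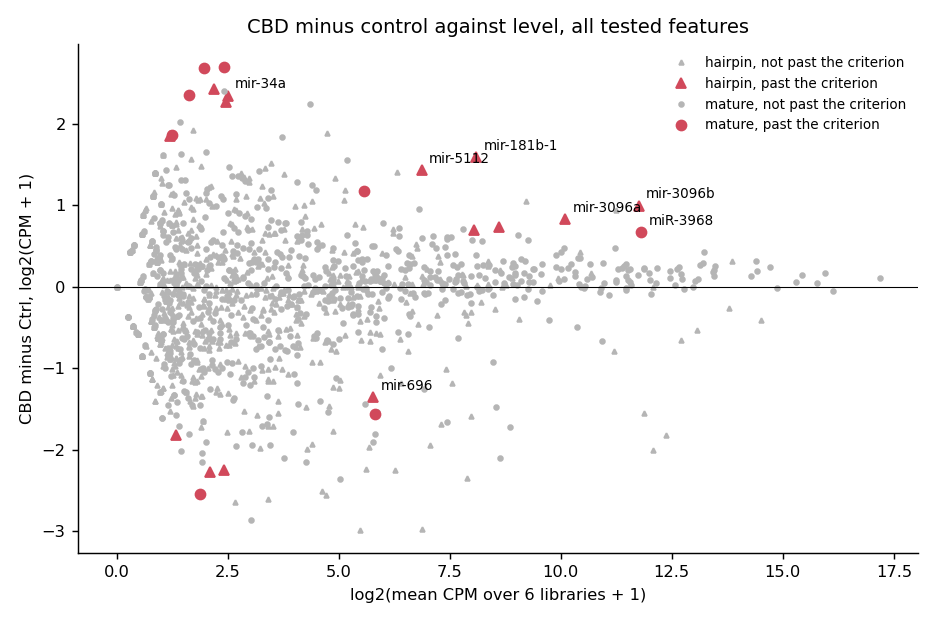
Difference between CBD and control, on the log2(CPM + 1) scale, against the log2 mean CPM of the 6 libraries, for 1363 features (triangles are hairpin entries, circles mature miRNAs). The 22 features that passed the criterion are red, and the 7 with an adjusted p up to 0.1 are named. Of the 22, 12 lie at the left, where each rests on at most 20 reads.

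The share of reads on 3 hairpins (mir-6243, mir-6240, mir-6236) differed widely between libraries within both groups. In control the 3 hairpins together took 0.204%, 3.81% and 2.41% of the reads in libraries 22, 28 and 34. In CBD they took 1.67%, 0.160% and 0.151% in libraries 24, 30 and 36. Thus 1 control library and 2 CBD libraries were low and the others were high, and the other groups held only 1 library under 1%. The summed level was 20695 ± 18459 CPM (SD, n = 3) in control and 5998 ± 7614 CPM (n = 3) in CBD, and a 2-sided exact permutation test gave p = 0.2, where 0.1 is the smallest p that 3 against 3 allow.

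**Figure D2:**
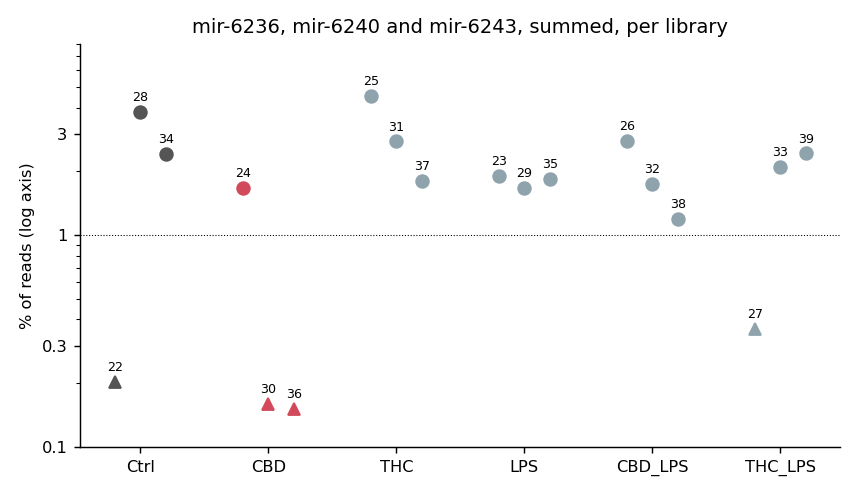
Summed share of the 3 hairpins mir-6243, mir-6240 and mir-6236 in each of the 18 libraries (log axis, percent of reads), with the library number above each point. The dotted line marks 1%, and the libraries under it (triangles) are control 22, CBD 30, CBD 36 and THC_LPS 27.

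Each difference was therefore also taken within the low libraries (CBD 30 and 36 against control 22) and within the high ones (CBD 24 against control 28 and 34). All 22 had the same sign in both, as did 40.2% of all features; the 22 were chosen on these same libraries, so this is a description. With the log2 summed level of the 3 hairpins as a covariate, 17 of the 22 still passed the criterion, and with a factor for the low libraries 20 did. The count itself moved with the libraries used. Without control library 22 it was 61, without CBD library 24 it was 36, and in libraries 28 to 39 alone it was 153 (26 higher and 127 lower), where both control libraries are high in the 3 hairpins and both CBD libraries low. In libraries 28 to 39 the treatment and this share cannot be told apart.

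mir-3096b, a hairpin entry, had the smallest p of all features. It stood at 2261, 2208 and 2389 CPM in control libraries 22, 28 and 34 and at 3536, 5434 and 4912 CPM in CBD libraries 24, 30 and 36. All CBD libraries lay above all control libraries, and CBD 24, the high-share library, was the lowest of them. The difference was 0.99 ± 0.17 (SE) with an adjusted p of 0.0189 by limma, 1.19 within the low libraries and 0.62 within the high ones. mir-3096a, the other mir-3096 entry, went from 749, 771 and 837 CPM in control to 1077, 1619 and 1551 CPM in CBD. Its difference was 0.83 ± 0.19 (adjusted p = 0.0915), 1.08 in the low and 0.42 in the high libraries. These entries may share reads with each other and with Snord93, which was not tested, so they are not taken as separate evidence.

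mir-181b-1, a precursor of miR-181b, an abundant miRNA of blood cells, was at 119, 161 and 119 CPM in control libraries 22, 28 and 34 and at 568, 353 and 316 CPM in CBD libraries 24, 30 and 36. The groups did not overlap, and CBD 24 stood highest. The difference was 1.59 ± 0.31 (SE; adjusted p = 0.0342), the largest among the 10 called features with at least 100 reads, and was 1.48 in the low and 2.03 in the high libraries. mir-181b-2, the precursor of the same miRNA at another locus, was at 68.0, 66.7 and 62.9 CPM in control and 54.5, 63.8 and 93.3 CPM in CBD, with overlapping groups and a difference of 0.06 ± 0.26.

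mir-5112 rose from 65.9, 65.0 and 54.8 CPM in control to 138, 178 and 193 CPM in CBD. Its difference of 1.43 ± 0.29 (SE; adjusted p = 0.0479) was 1.48 in the low and 1.19 in the high libraries. mir-696 was the only lower feature among the 7. It fell from 89.3, 68.4 and 75.7 CPM in control libraries 22, 28 and 34 to 27.2, 37.6 and 25.3 CPM in CBD libraries 24, 30 and 36. The highest CBD library lay well under the lowest control library, and the difference was -1.36 ± 0.26 (adjusted p = 0.0342), with -1.50 in the low and -1.37 in the high libraries.

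miR-3968 was the only mature entry among the 7, and whether its reads come from another RNA was not tested. It was at 3194, 2591 and 2589 CPM in control libraries 22, 28 and 34 and at 4533, 3951 and 4783 CPM in CBD libraries 24, 30 and 36, without overlap. Its difference of 0.67 ± 0.15 (SE; adjusted p = 0.0915) was 0.44 in the low and 0.81 in the high libraries. The hairpin entry mir-3968 stood near 30 CPM in both groups, 31.9 ± 24.4 in control and 29.4 ± 10.5 in CBD (SD, n = 3). mir-34a, the remaining one of the 7, is described with its family.

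Another 4 features of at least 100 reads passed the criterion with adjusted p-values from 0.155 to 0.254. mir-505 went from 208.4, 198.4 and 188.8 CPM to 311.2, 283.5 and 379.3 CPM, a difference of 0.70 ± 0.18 (SE). mir-1900, opposite an intron of Icam5, went from 238.2, 342.0 and 308.8 CPM to 428.8, 523.9 and 513.7 CPM, a difference of 0.73 ± 0.22. miR-129-5p, a miRNA known from brain, went from 21.3, 37.6 and 26.8 CPM to 63.1, 60.1 and 69.5 CPM, a difference of 1.18 ± 0.36. In each of these 3 all CBD libraries stood above all control libraries. Among 23 alternative settings of the processing, the call was lost in 5 for mir-505, 11 for mir-1900 and 13 for miR-129-5p.

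miR-2137 was the fourth. It was at 59.5, 123.1 and 58.3 CPM in control libraries 22, 28 and 34 and at 57.4, 20.7 and 12.6 CPM in CBD libraries 24, 30 and 36. CBD 24 lay within 1 CPM of the lowest control library, and the CBD libraries with a low share of the 3 hairpins stood far below, while in control library 22, also of low share, the level was that of library 34. The difference was -1.56 ± 0.48 over all libraries (adjusted p = 0.254), -1.82 in the low and -0.56 in the high ones, and it did not pass the criterion with the covariate (-1.04) or the factor (-1.28).

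**Figure D3:**
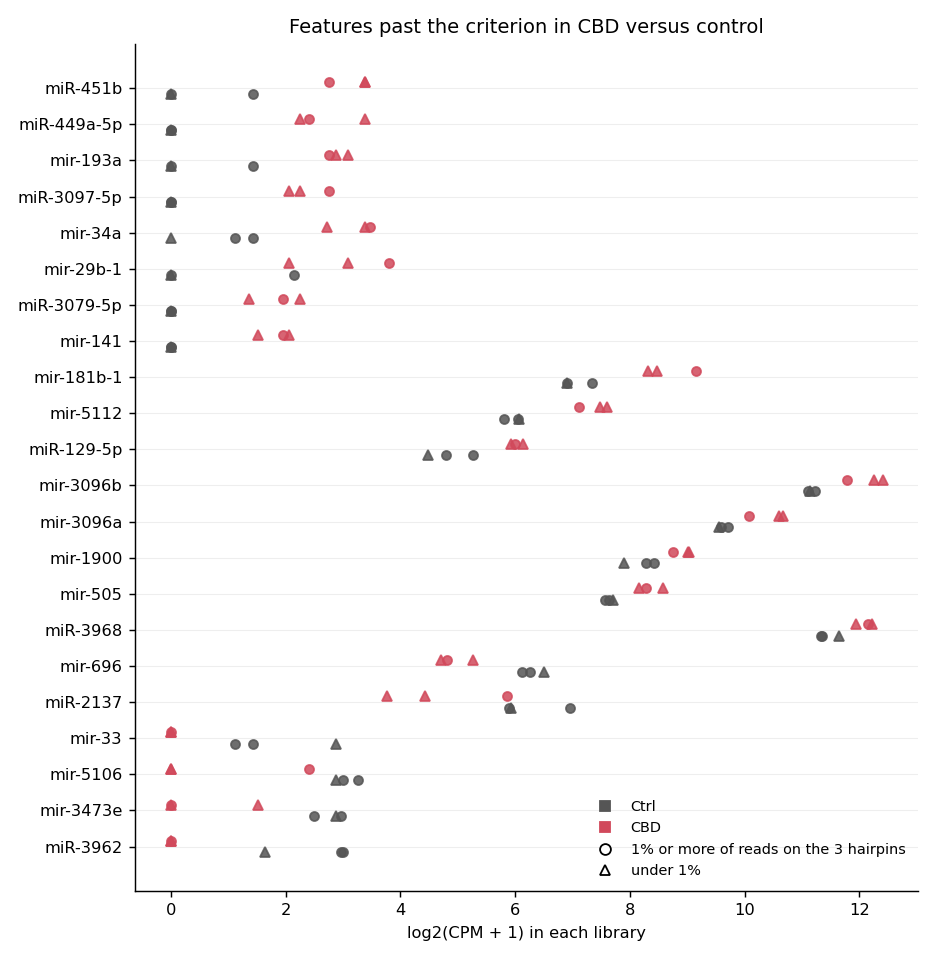
Level of the 22 features that passed the criterion in each of the 6 libraries, as log2(CPM + 1), with control in gray and CBD in red, ordered by the difference. Triangles are libraries with under 1% of reads on the 3 hairpins, and the groups are separate for 21 of the 22 features, the exception being mir-29b-1.

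The rare features that passed rest on a few reads each. With no read in any control library, CBD libraries 24, 30 and 36 held 4, 2 and 2 reads of miR-3097-5p, 2, 2 and 1 of miR-3079-5p, and 2, 1 and 2 of mir-141. Against a floor of 3 reads over the control group, these counts were 2.74-fold, 1.71-fold and 1.71-fold higher. The floor leaves out the counting error of the CBD reads, so these folds are not lower limits. miR-451b, which lies in the cluster of the erythroid miR-451a, had 0, 1 and 0 reads in control and 4, 5 and 6 in CBD, a ratio of 15.4 with an exact 95% counting interval of 2.37 to 649. mir-193a had 0, 1 and 0 reads in control and 4 in each CBD library, a ratio of 12.3 (1.82 to 527). mir-29b-1 had 0, 2 and 0 reads in control and 9, 4 and 2 in CBD, a ratio of 7.70 (1.79 to 69.4), and it was the called feature whose groups overlapped in CPM. These ratios come from the reads that chose the features, so they are a description, with a size that is known poorly.

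Of the rare features lower in CBD, miR-3962 had 1, 4 and 6 reads in control libraries 22, 28 and 34. It had none in CBD, 3.57-fold lower against a floor of 3 reads over the CBD group. let-7g-5p, whose sequence it largely shares, had 1476 to 2342 reads in the same libraries, and the part of let-7g-5p reads in the miR-3962 count was not tested. let-7g-5p differed by 0.20 ± 0.17 (SE). mir-33, in an intron of the sterol regulator Srebf2, had 3, 1 and 1 reads in control and none in CBD. This was 1.62-fold lower against the same floor, which leaves out the counting error of the control reads. mir-3473e had 3, 4 and 4 reads in control and 0, 1 and 0 in CBD, a ratio of 0.0934 with an exact 95% counting interval of 0.00217 to 0.643. mir-5106 had 3, 5 and 6 reads in control and 3, 0 and 0 in CBD, so that CBD 24 equaled control 22 in reads, and the difference was -2.88 in the low libraries and -0.72 in the high ones.

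Within the miR-34/449 family, which shares the seed GGCAGUG, the rare members had positive differences, of which that of miR-449a-5p passed, and miR-34a-5p, with the most reads, did not pass. miR-449a-5p had no read in the control libraries and 3, 2 and 6 reads in CBD libraries 24, 30 and 36. This was 3.77-fold higher against the floor of 3 reads over the control group. Its fitted difference was 2.68 ± 0.70 (SE), with an adjusted p of 0.159 by limma. Its cluster neighbor miR-449c-5p had 0, 0 and 2 reads in control and 4, 2 and 9 in CBD. The groups did not overlap in CPM, and the ratio was 7.70 with an exact 95% counting interval of 1.79 to 69.4, although the difference of 2.40 ± 0.84 did not pass the criterion (adjusted p = 0.311). miR-34c-5p had 1, 0 and 1 reads in control and 3, 1 and 2 in CBD, a difference of 1.08 ± 0.50 (adjusted p = 0.525).

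miR-34a-5p was the member with the most reads, 999 over the 18 libraries. It was at 61.7, 78.7 and 55.9 CPM in control libraries 22, 28 and 34 and 48.8, 93.9 and 56.9 CPM in CBD libraries 24, 30 and 36. The groups overlapped in full, and the difference was -0.02 ± 0.38 with a 95% interval of -0.83 to 0.79. As a ratio the interval ran from 0.563 to 1.73, so a change of 1.5-fold in either direction was not excluded here. The precursor entry mir-34a, in contrast, had 0, 1 and 1 reads in control and 7, 3 and 6 in CBD, a ratio of 8.22 (exact 95% counting interval 1.93 to 73.7) and a fitted difference of 2.34 ± 0.54 (adjusted p = 0.0915). It was 3.06 in the low libraries and 2.19 in the high ones. miR-34a-3p, the passenger arm, had 1 read in control and 3 in CBD. Of the 6 listed mature members of the family 4 could be tested and 1 was called. The median difference was 1.74, or 1.49 with miR-449a-5p set to its fold against the floor.

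Hairpin entries were also set against their mature arms. The set of hairpin entries with a tested mature arm held 451 hairpins in 671 pairs, and the difference of the hairpin minus that of its arm was fitted over all of them. By limma 0 pairs had an adjusted p up to 0.1, 11.03% of the pairs had a p up to 0.05, and 10 had a p up to 0.005. This comparison was chosen after the data were seen. The 14 called hairpins included 12 with a tested arm, in 21 pairs, and 0 arms of theirs passed the criterion, which 1.11% of all tested mature miRNAs did. In 18 of these 21 pairs the hairpin and the arm differed with a p up to 0.05; the hairpins were chosen for their own change in the same libraries, so nothing is read from this count.

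The arms of the called hairpin entries had differences from -0.77 to 0.96, some close to 0 and some not. miR-505-5p, at 0.96 ± 0.47 (SE), and miR-3096a-5p, at 0.72 ± 0.42, had the sign of their hairpins, with 0.70 for mir-505 and 0.83 for mir-3096a, as did miR-3096a-3p at 0.46 ± 0.38 and miR-34a-3p at 0.68 ± 0.68. miR-505-3p, at -0.77 ± 0.44, and miR-33-3p, at 0.78 ± 0.52, had the opposite sign to mir-505 and mir-33. miR-181b-5p was at 4172 ± 55.0 CPM in control and 4973 ± 1047 CPM in CBD (SD, n = 3), a difference of 0.23 ± 0.18 (SE) beside 1.59 of mir-181b-1. miR-141-3p was at 7116 ± 743 and 6995 ± 581 CPM, a difference of -0.02 ± 0.18, beside 5 reads of mir-141 in all. miR-29b-3p differed by 0.05 ± 0.22, miR-193a-3p by 0.30 ± 0.40 and miR-33-5p by 0.31 ± 0.41. miR-5112 was at 34.03, 111.1 and 81.6 CPM in control and 93.2, 18.8 and 34.8 CPM in CBD. Its difference was -0.76 ± 0.58, while its hairpin entry was higher. The mature miR-5112 was low in the libraries with a low share of the 3 hairpins in both groups.

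**Figure D4:**
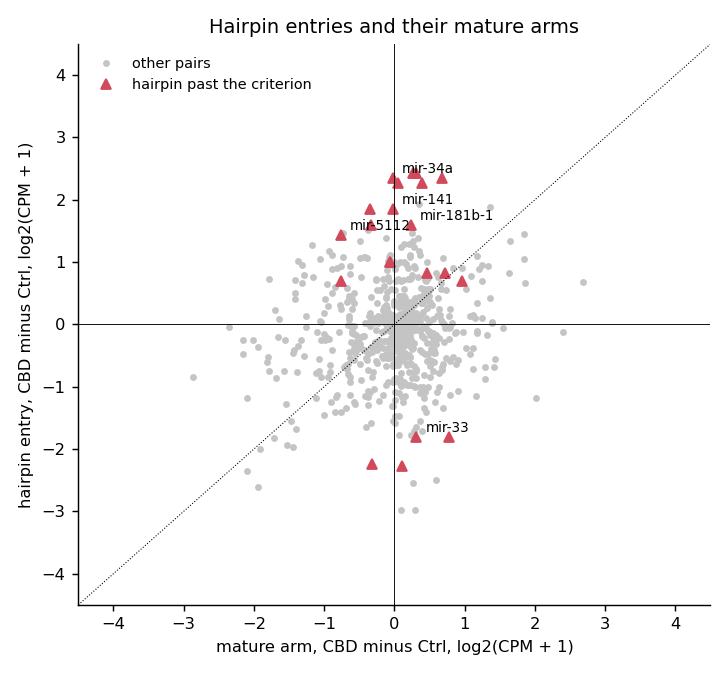
Difference between CBD and control of a hairpin entry (vertical) against that of its mature arm (horizontal), both on the log2(CPM + 1) scale, for 671 pairs. The 21 pairs of called hairpins (red) lie away from 0 on the vertical axis, by choice, and within 1 of 0 on the horizontal axis; the dotted line marks equal change.

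Some features of interest for CBD in this series did not pass the criterion, and a few of them followed control library 22. miR-6384, in an intron of Gpc3, was at 8.51, 5.13 and 4.66 CPM in control and 44.5, 30.04 and 23.7 CPM in CBD, without overlap, and its difference of 2.24 ± 0.80 (SE) had an adjusted p of 0.311. mir-325 was at 57.4, 41.0 and 30.3 CPM in control and 152, 111 and 82.2 CPM in CBD, also without overlap, a difference of 1.40 ± 0.45 (adjusted p = 0.254). Both were higher in CBD in the low and in the high libraries.

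miR-5129-5p and miR-6351 had no read in any CBD library and none in control library 22. In library 28 there were 5 reads of the former and 19 of the latter, and in library 34 there were 7 and 9. mir-666 was at 10.6, 213.7 and 36.1 CPM in control libraries 22, 28 and 34 and at 17.2, 7.51 and 4.74 CPM in CBD. For all 3, control 22, the control library with a low share of the 3 hairpins, stood at or near the CBD level. The differences of -2.15, -2.86 and -2.23 were 0.00, 0.00 and -0.73 within the low libraries and -3.23, -4.29 and -2.29 within the high ones. With the factor for low libraries they were -1.53, -1.96 and -1.38.

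Neither of the LPS-responsive miRNAs miR-146a-5p and miR-155-5p passed in resting cells. miR-146a-5p, a brake on Toll-like receptor signaling, was at 6591, 4569 and 6634 CPM in control and 3647, 7229 and 8006 CPM in CBD. CBD libraries lay on both sides of control, and the difference was 0.03 ± 0.28 (SE), with a 95% interval of -0.56 to 0.61. Its hairpin entry mir-146a differed by -0.01 ± 0.23. The sign of both miR-146a-5p and mir-146a depended on the scaling or on the libraries used. miR-155-5p, the pro-inflammatory miRNA of activated macrophages, was at 1248, 598.5 and 919 CPM in control and 1024, 1292 and 1407 CPM in CBD, a difference of 0.48 ± 0.22 (adjusted p = 0.525). It was 0.11 within the low and 0.46 within the high libraries.

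Lists of miRNAs of related pathways hold mature miRNAs, of which 1.11% were called over all tested, with a median difference of 0.06, and 55.9% had a positive difference. With so few calls in all, a count of 0 in a list of this size is near the background. Of 16 miRNAs responsive to Toll-like receptors and NF-kB, all tested, 0 passed, with a median difference of -0.01 and 1 with a p up to 0.05 (miR-155-5p). Of 11 tested p53 responsive miRNAs 1 passed, miR-449a-5p, and the median was 0.33. Of 17 tested miRNAs linked to the unfolded protein response 0 passed, with a median of 0.14, and 14 had a positive difference. miR-106b-5p, of the Mcm7 cluster, had the smallest p among them, with 821 ± 72.9 CPM in control and 1077 ± 73.5 CPM in CBD (SD, n = 3) and a difference of 0.39 ± 0.16 (SE). Among 10 tested miRNAs linked to Nrf2 and redox and 10 linked to sterols 0 passed, with medians of 0.06 and 0.22. miR-33-3p and miR-33-5p, which act on cholesterol export, differed by 0.78 ± 0.52 and 0.31 ± 0.41.

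The miR-17~92 cluster and its paralogs, which favor proliferation, had 17 tested members, 0 of which passed, with a median of 0.17. miR-92a-1-5p, a passenger arm of this cluster, came close, with 3207, 2307 and 1769 CPM in control and 1421, 1502 and 1538 CPM in CBD, a difference of -0.66 ± 0.21 (SE; adjusted p = 0.254). It passed with the covariate (-0.89) and with the factor for low libraries (-0.80). All 9 mature members of the let-7 family had a positive difference, with a median of 0.21, and 0 passed. Over all mature miRNAs with at least 100 reads 65.9% were positive, with a median of 0.09. let-7i-5p was at 10379 ± 966 CPM in control and 11939 ± 275 CPM in CBD (SD, n = 3), a difference of 0.21 ± 0.13 (SE), and miR-98-5p differed by 0.35 ± 0.17. Of 10 tested members of the miR-181 family 0 passed, with a median of -0.07.

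The 10 most abundant features did not pass the criterion. miR-92a-3p, the most abundant, was at 181562, 124809 and 129464 CPM in control libraries 22, 28 and 34 and at 149127, 159949 and 154259 CPM in CBD libraries 24, 30 and 36, a difference of 0.11 ± 0.16 (SE). miR-22-3p, miR-191-5p, miR-27b-3p, miR-30d-5p, miR-16-5p, miR-181a-5p, miR-182-5p and miR-21a-5p had differences between -0.05 and 0.24, and 0 of them passed. The hairpin entry mir-5099, the only one among the 10 most abundant features, was at 26672 ± 7092 CPM in control and 19813 ± 3022 CPM in CBD (SD, n = 3), a difference of -0.40 ± 0.19 (adjusted p = 0.525). Of the reference miRNAs for PCR, miR-103-3p differed by 0.22 ± 0.23 and miR-191-5p by 0.16 ± 0.19.

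Of the 6 blood-lineage markers 3 were well detected and 3 rare, and some markers of other cells were present. miR-142-5p, which marks blood cells, was at 8082 ± 1211 CPM in control and 8477 ± 1434 CPM in CBD (SD, n = 3), and miR-142-3p and the myeloid miR-223-3p were detected as well, while over the 18 libraries miR-144-3p had 2 reads, miR-451a 12 and miR-150-5p 75. Of the neuronal list miR-128-3p was at 538 and 561 CPM in control and CBD, and miR-124-3p had 4 reads over the 18 libraries. miR-9-5p was lower in all CBD than in all control libraries, with a difference of -0.89 ± 0.49 (SE) that did not pass. The endothelial miR-126-5p was at 444 and 517 CPM and miR-126-3p at 122 and 126 CPM. The liver miRNA miR-122-5p had 5 reads over the 18 libraries, and the muscle markers had 7 to 10 reads each. Of 5 epithelial markers, miR-141-3p stood at 7116 and 6995 CPM and miR-200b-3p at 193 and 206 CPM in control and CBD. miR-205-5p had 1 read over the 18 libraries. miR-200a-3p was lower in all CBD than in all control libraries, with a difference of -0.64 ± 0.43 (SE). For miR-200c-3p the groups overlapped, and the difference was -0.24 ± 0.55. The summed level of the epithelial list was 6753 to 8211 CPM in control and 6594 to 7881 CPM in CBD, and that of the blood-lineage list was 8983 to 11931 CPM in control and 9117 to 12347 CPM in CBD. No marker of any list passed the criterion.

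CBD was also set against THC at the same dose and time. THC is an isomer of CBD in which an oxygen closes a ring that is open in CBD. The comparison shares the CBD libraries with the comparison above. Between the compounds 45 features (3.30%) passed the criterion, 18 of them higher in CBD (1.32%) and 27 lower (1.98%), and 7 (0.514%) had an adjusted p up to 0.1. With library size alone as scaling the split was 9 higher and 24 lower. The 3 hairpins took 1.80% to 4.55% of the reads in THC libraries, all in the high range, and with the factor for low libraries 19 features passed, 13 of them among the 45. Without CBD library 24 the count was 88, and without CBD 30, CBD 36, THC 25 or THC 31 it was 18 to 25.

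Of the 45 features, 26 were hairpin entries and 19 mature miRNAs, and of the 7 with an adjusted p up to 0.1 by limma, 5 were hairpin entries. mir-3096b was at 1674, 2098 and 1999 CPM in THC libraries 25, 31 and 37, all below the CBD libraries, and CBD exceeded THC by 1.25 ± 0.17 (SE; adjusted p = 0.00107), with mir-3096a 1.06 ± 0.19 higher (adjusted p = 0.0168). mir-181b-1 was at 137, 149 and 142 CPM in THC and 1.48 ± 0.31 higher in CBD (adjusted p = 0.0369). mir-5117, a hairpin entry, was at 811, 945 and 1113 CPM in THC and 1543, 1607 and 1644 CPM in CBD, a difference of 0.75 ± 0.15 (adjusted p = 0.0355). miR-6384 had 5, 0 and 0 reads in THC and 31, 16 and 15 in CBD, a difference of 4.17 ± 0.80 (adjusted p = 0.0319). miR-155-5p was at 659, 499 and 596 CPM in THC, below every CBD library, and 1.08 ± 0.22 higher in CBD (adjusted p = 0.0355). Its difference between CBD and control was 0.48 and did not pass the criterion. miR-6384 and mir-5117 did not pass it against control either. The only lower feature of the 7, named after its values were seen, was mmu-mir-669o, at -2.55 ± 0.57 (adjusted p = 0.0596).

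For some features no difference between the compounds was shown. mir-141 had 2, 3 and 2 reads in THC and 2, 1 and 2 in CBD, and the compounds differed by -0.04 with a 95% interval of -0.98 to 0.91. miR-451b had 4, 2 and 6 reads in THC and differed by 0.76 (-0.71 to 2.22). For miR-34a-5p the difference was -0.14 (-0.95 to 0.67) and for miR-146a-5p -0.25 (-0.83 to 0.34). mir-34a, with 3, 3 and 1 reads in THC, differed by 1.39 with an interval of 0.25 to 2.53 that lies above 0, without passing the criterion (adjusted p = 0.187). Of the 22 features called against control, 21 had the same sign against THC, and 18 had a p up to 0.05, as did 221 of all features (16.2%); the comparisons share the CBD libraries, so the values stand side by side only.

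The effect of CBD in LPS-treated cells was taken between libraries of other groups, which entered the resting comparison only through the shared estimate of the spread and the filter on reads. Between CBD_LPS and LPS, 3 features passed the criterion (0.220%), 0 had an adjusted p up to 0.1, and 44 (3.23%) had a p up to 0.05. Besides mir-696 they were mmu-miR-10b-5p (-2.46 ± 0.67, SE) and mmu-miR-6390 (-1.24 ± 0.27), named after their values were seen. Among the 22 features of resting cells 17 had the same sign with LPS. This was not counted over all features, so nothing is read from it. Of the 17, 4 had a p up to 0.05, and 1 passed the criterion. That one was mir-696, at 64.1, 75.5 and 66.9 CPM in LPS libraries 23, 29 and 35 and 25.9, 41.2 and 35.99 CPM in CBD_LPS libraries 26, 32 and 38. The groups did not overlap, and the difference was -1.003 ± 0.26 (SE; adjusted p = 0.849), beside -1.36 in resting cells. All 6 of these libraries held from 1.20% to 2.78% of their reads on the 3 hairpins.

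The others with a p up to 0.05 were mir-34a, mir-181b-1 and miR-129-5p. mir-34a was at 1.31, 1.32 and 2.06 CPM in LPS and 5.64, 6.64 and 3.60 CPM in CBD_LPS, a difference of 1.28 ± 0.54 (SE). mir-181b-1 was at 124, 164 and 135 CPM in LPS and 424, 165 and 176 CPM in CBD_LPS, where only library 26 stood far above, a difference of 0.72 ± 0.31. miR-129-5p was at 32.7, 26.5 and 37.1 CPM in LPS and 93.6, 50.5 and 48.0 CPM in CBD_LPS, a difference of 0.92 ± 0.36. In all 3 the CBD_LPS libraries stood above the LPS libraries.

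mir-5112 and miR-3968, by contrast, overlapped between LPS and CBD_LPS. mir-5112 was at 65.4, 59.6 and 76.2 CPM in LPS and 89.1, 54.5 and 42.0 CPM in CBD_LPS. miR-3968 was at 3562, 3078 and 3248 CPM in LPS and 4259, 3447 and 3243 CPM in CBD_LPS. The difference of the 2 effects was tested as an interaction over all features. By limma 0 had an adjusted p up to 0.1, where the smallest was 0.524, while 65 had a p up to 0.05 and 9 passed the criterion (0.660%). By edgeR and by DESeq2 0 features had an adjusted p up to 0.1 as well. The effect of CBD was thus not shown to differ between resting and LPS-treated cells.

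**Figure D5:**
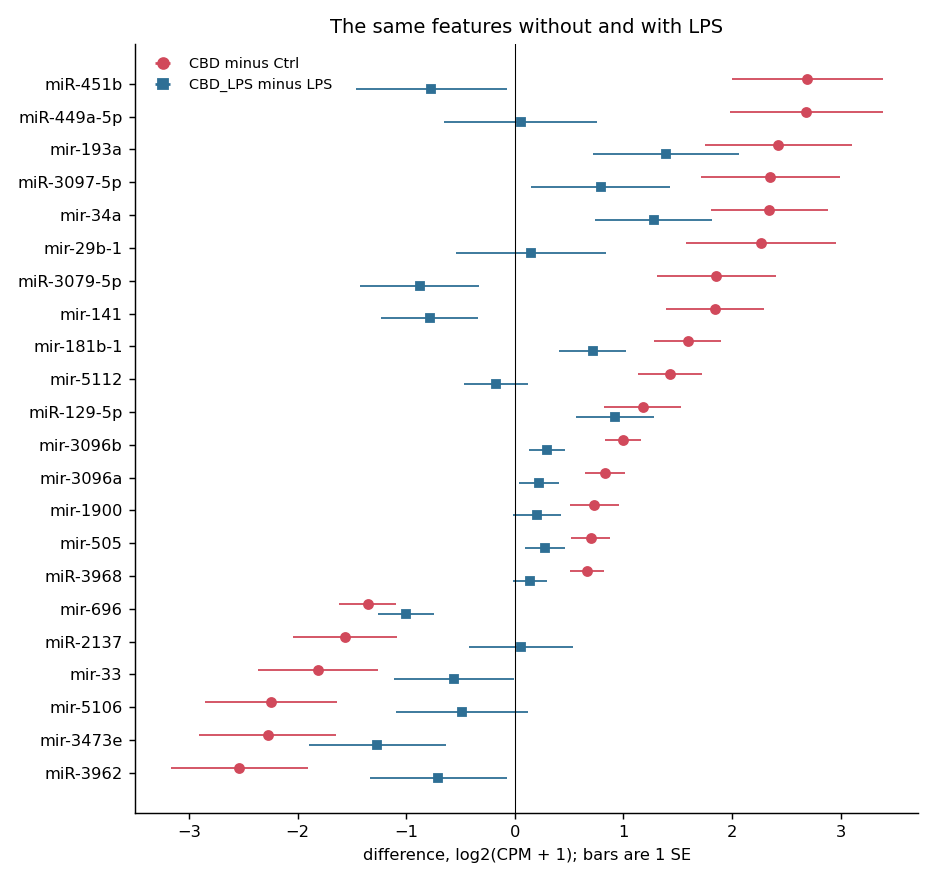
Differences of the 22 features between CBD and control (red circles) and between CBD_LPS and LPS (blue squares) on the log2(CPM + 1) scale, with bars of 1 SE. The resting values are those that chose the features. With LPS 17 of the 22 lie on the same side of 0, which was not counted over all features. mir-696 is the only one that passed the criterion there.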

How the data were processed

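Small RNA of 18 libraries of BV-2 cells was analysed, 3 in each of 6 groups taken from the treatment labels. By the study's methods, reads were aligned to mouse miRBase sequences with BWA with at most 10 mappings per read and counted per known miRNA. The values the authors deposited are CPM scaled by edgeR's TMM factors; in 11 libraries the sum of the deposited CPM is above that of plain CPM, and these were recorded as a score. Dividing by the smallest non-zero value of a library gave whole reads for 100% of its values (tolerance 0.001), 442718 to 1057147 per library.

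Features with at least 10 reads over all libraries were tested on log2(CPM + 1), with a pseudocount of 1, in R 4.3.3 with limma 3.58.1, its variance prior following the mean, in a model of the 6 groups. The criterion was an unadjusted 2-sided p up to 0.005 and 1.5-fold or more, after the study's methods, and p-values were adjusted by Benjamini-Hochberg over all features tested. The study does not say how reads with several mappings were counted. Counting intervals cover counting error only, since amplified reads are not independent molecules. Floors (3 reads) cover only the counting error of the group without reads. No pair of replicates agreed within sampling noise.

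The features named are those that passed the criterion, with their other arms and hairpins, those the study listed or measured by PCR for CBD, up to 3 with the smallest p of each list, the 10 most abundant, the 3 tracked hairpins, and 5 with the smallest p between CBD and THC. The members and lists were chosen with earlier results of these data known. The comparison of hairpins with their arms and the comparison of CBD_LPS with LPS were chosen after seeing the data. The alternatives were edgeR 4.0.16 (quasi-likelihood) and DESeq2 1.42.0 on recovered reads, other scalings, pseudocounts, filters and fits, and each replicate left out. The scripts were tested on simulated data. RefSeq sequences (GRCm38.p6) matched 600 of 721 tested mature miRNAs by name.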

Additional observations from a re-analysis of the deposited data

How the results depend on the processing

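The 5 features mir-3096a, mir-3096b, mir-5112, mir-696 and mir-181b-1 passed the criterion in every setting run for them. Over the 22 called features no setting changed a sign, and 366 repeats kept the call and 128 lost it. Against 22 features called between CBD and control, 7 were called with the adjusted p held to 0.1, 14 with DESeq2 (8 of the 22 among them), 9 with filterByExpr, 9 among mature miRNAs alone, 13 among hairpins alone, 153 in libraries 28 to 39, 38 with the log2 summed CPM as a covariate, and 35 with the factor for low libraries. edgeR called 17, of which 11 are among the 22. Leaving out 1 library each gave 15 to 61. Against 45 between CBD and THC, 23 were called with filterByExpr, 19 among mature miRNAs alone, 24 among hairpins alone, 158 in libraries 28 to 39, 19 with the covariate and 19 with the factor, and 18 to 88 when 1 library was left out. The interaction stayed at 0 in all settings but libraries 28 to 39, where it was 134. The count of hairpin and arm pairs with an adjusted p up to 0.1 was 0, and it was 6 with the factor, 2 with a pseudocount of 0.5, 79 in libraries 28 to 39, and 0 to 13 when 1 library was left out. The cause of these changes was not tested. DESeq2 moved the median of all features to -0.10.

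Of the features not called, the sign of a difference near 0 turned for several. miR-146a-5p was at -0.023 with DESeq2, -0.060 with RLE size factors, -0.023 with library size alone, -0.28 with the covariate, -0.14 with the factor, and -0.19 to 0.38 with 1 library left out. mmu-mir-191 was at -0.051, -0.053, -0.017, -0.11 and -0.045 in the same order, and -0.076 to 0.17. miR-34a-5p was at 0.020 with edgeR, 0.14 in libraries 28 to 39, and -0.29 to 0.17. miR-103-2-5p was at 0.12 with edgeR, 0.050 with DESeq2, and -0.68 to 0.52. In libraries 28 to 39 mir-103-1 was at -0.11 and mir-146a at 0.24. With 1 library left out mir-146a ran from -0.072 to 0.12, miR-155-3p from -0.47 to 0.15 and miR-191-3p from -0.23 to 0.044. Among 68 other named features 34 changed sign in at least 1 setting. The labels number each library once, so the groups share no number. The numbers run in 3 sets of 6 with 1 library of every group each, which the labels do not call pairs, and a replicate block for these sets, chosen after seeing the data, called 30 features between CBD and control (20 of the 22 among them), 50 between CBD and THC and 0 for the interaction. Under it mir-29b-1 and mir-33 no longer passed. Deviations from the group means of CBD and control libraries of the same set correlated at -0.708, -0.538 and -0.575 across 426 features. In each set a library with a low share of the 3 hairpins met a library with a high share. These values therefore cannot tell whether the sets pair the libraries. Depth limits features of a few reads, since 3 reads are up to 6.38 CPM.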
